A study of Mus musculus with 9 samples.

Results

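The subject is a list of 33 mouse genes for cholesterol and fatty acid synthesis, chosen by name: 18 enzymes of the sterol pathway (the sterol arm), 5 genes for its SREBP control and for sterol transport, and 10 genes for making, desaturating and elongating fatty acids (the fatty acid arm). Of the 33, 32 were measured among the 18193 genes that were tested, each by 1 probe set. Acat2, of the sterol arm, has no probe set named for it, so its level was not analysed here, which leaves 17 measured genes in that arm. The cells were LSK cells, the Lineage- Sca-1+ c-Kit+ fraction of bone marrow that holds the blood stem cells, purified from wild-type C57/Bl6 mice and kept for 3 days on a feeder layer. OP9 is a mouse marrow stromal cell line. There were 3 groups of 3 arrays: OP9-DL1+CompoundE, feeders with Delta-like 1 and 1 µM of the gamma-secretase inhibitor Compound E; OP9-DL1, the same feeders with no inhibitor; and OP9-GFP, the control feeders. Delta-like 1 is a ligand of Notch receptors, and gamma-secretase makes the cut that frees the active part of a bound receptor. Only cells that did not adhere were harvested, and no group was cultured without a feeder. Whether the 3 replicates of a group began as separate mice or separate cultures is not in the labels, and a p-value therefore speaks only of the spread between these arrays, which may be technical.

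Both pathways start from acetyl-CoA in the cytosol. The sterol arm builds isoprene units through mevalonate, joins them into squalene, closes the rings to lanosterol and then trims lanosterol to cholesterol. The fatty acid arm makes malonyl-CoA, strings it into palmitate, and then elongates and desaturates the chain. SREBP transcription factors drive the genes of both arms. They are held in the endoplasmic reticulum by Scap and Insig proteins while sterols are plentiful and are cut free in the Golgi when sterols run low. SREBP-2, from Srebf2, is known to act mainly on sterol genes, and the SREBP-1c form from Srebf1 mainly on fatty acid genes. Blood cells that divide or change type make membranes through both routes.

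Values are deposited log2 signals, and levels of different genes are not compared because each probe set has its own scale. The 27 probe sets for bacterial transcripts read 2.24 to 3.64, while the lowest value of any member on any array was 6.86, so every measured member was well above that background. Arrays of 1 group correlated at 0.997 to 0.998 over all genes, and the median SD of a member within a group was 0.06 on the log2 scale. Scap on OP9-GFP and Dhcr7 on OP9-DL1 held a value identical in every deposited digit on 2 arrays, which lowers their replicate spread.

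Marker genes of several cell types differed between the groups in the harvested cells. Of all genes tested, 46.7% rose or fell with Compound E against OP9-DL1, and 32.6% on OP9-DL1 against OP9-GFP. In the same order the shares were 80% and 93.3% of macrophage genes and 100% and 100% of megakaryocyte genes. They were 93.8% and 87.5% of feeder stroma genes and 80% and 80% of blood cell genes. Of 15 macrophage genes, 12 rose and none fell with Compound E against OP9-DL1, and 14 fell and none rose on OP9-DL1 against OP9-GFP. Their summed linear signal was 36360 to 37407 with Compound E, 13724 to 14246 on OP9-DL1 and 32416 to 33361 on OP9-GFP, with C1qa at background in every group. All 11 measured megakaryocyte genes went the other way, with sums of 7411 to 7728 with Compound E, 25153 to 25373 on OP9-DL1 and 10013 to 10189 on OP9-GFP. Of 16 feeder stroma genes, 15 fell with Compound E against OP9-DL1 and 14 rose on OP9-DL1 against OP9-GFP, with sums of 16814 to 16884 with Compound E, 28678 to 29136 on OP9-DL1 and 17240 to 17631 on OP9-GFP. Of 10 adipocyte genes, 4 fell and 1 rose with Compound E against OP9-DL1. That share of 50% is near the 46.7% of all genes and so no result about the list. On OP9-DL1 against OP9-GFP 5 adipocyte genes rose and 1 fell (60%, all genes 32.6%). Their sums were 5488 to 5562 with Compound E, 7870 to 8103 on OP9-DL1 and 6882 to 7212 on OP9-GFP, with Cidec and Lep at background. Of 14 proliferation genes, 9 fell and 1 rose on OP9-DL1 against OP9-GFP (71.4%, all genes 32.6%). With Compound E against OP9-DL1 4 rose and 1 fell, a share of 35.7% that is below the 46.7% of all genes. The proliferation sums were 24932 to 26251 with Compound E, 26251 to 26580 on OP9-DL1 and 28202 to 28774 on OP9-GFP. Of 10 blood cell genes, 6 rose and 2 fell with Compound E against OP9-DL1, and 2 rose and 6 fell on OP9-DL1 against OP9-GFP, with sums of 28395 to 29980 with Compound E, 25748 to 26135 on OP9-DL1 and 28760 to 29003 on OP9-GFP. Among them Ptprc, the leukocyte antigen CD45, read 11.56, 11.49 and 11.71 with Compound E, 11.44, 11.47 and 11.24 on OP9-DL1, and 11.49, 11.48 and 11.62 on OP9-GFP. Kit, the receptor used to sort the LSK cells, read 8.27, 8.05 and 8.12 with Compound E, 10.25, 10.36 and 10.05 on OP9-DL1, and 8.81, 8.91 and 9.11 on OP9-GFP, so it was highest on OP9-DL1. In bulk RNA, fewer cells of a type and less RNA per cell cannot be told apart. The part of these markers in the results on lipid genes was not tested.

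SREBP proteins bind sterol regulatory elements, usually beside sites for NF-Y and Sp1, so the bases upstream of the members were read from RefSeq (GRCm38.p6). Windows of 250 bases before a gene start were there for 26 of the 33 members (Dhcr7, Srebf1, Pmvk and Scap have several, and Acat2, not on the array, is included), of which 15 belong to the sterol arm, 4 to the regulators and 7 to the fatty acid arm. The letters CCAAT, the NF-Y box, were searched on both strands and occurred in at least 1 window of 20 of the 26 genes (76.9%), against 39.4% of the 14452 array genes with a window. By group they were in 14 of 15 sterol genes, 3 of 4 regulators and 3 of 7 fatty acid genes. The Sp1-type GC box, GGGCGG on either strand, was in a window of 21 of 26 genes (80.8%) against 53.4% of array genes: 14 of 15 sterol genes, 4 of 4 regulators and 3 of 7 fatty acid genes. A sterol regulatory element spelled TCACNCCAC was found in 1 of 26, Hmgcs1, against 1.27% of array genes, and the E-box form TCANNTGA in 0 of 26, against 6.93%. A match is a description of letters, not a site in use. No window was read for Fdps, Fdft1, Sqle, Stard4, Scd1, Scd2 or Fads1.

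The windows of 5 members are shown because their signals carry the results below. Mvd, Mvk and Ebp are among the sterol genes with large differences. Hmgcs1 has the window with the sterol regulatory element, and Acss2 is the gene with the largest difference on OP9-DL1. The windows run 5′ to 3′ on the gene's strand and end at the base before the gene start. Capitals mark CCAAT or its complement ATTGG and, in Hmgcs1, the sterol regulatory element 137 bases before the start. They lie at chr8:122443423-122443672 (- strand) for Mvd, chr5:114444019-114444268 (+ strand) for Mvk, chrX:8193513-8193762 (- strand) for Ebp, chr13:119690101-119690350 (+ strand) for Hmgcs1 and chr2:155517793-155518042 (+ strand) for Acss2. Mvk holds 5 NF-Y boxes, Hmgcs1 3, Mvd 2, Ebp 2 and Acss2 1. The windows of Pmvk, which rose more than Mvk or Ebp with Compound E against OP9-DL1, are not shown. Its window at chr3:89454291-89454540 holds 1 NF-Y box, that at chr3:89459321-89459570 holds none, and neither holds a GC box.
Mvd: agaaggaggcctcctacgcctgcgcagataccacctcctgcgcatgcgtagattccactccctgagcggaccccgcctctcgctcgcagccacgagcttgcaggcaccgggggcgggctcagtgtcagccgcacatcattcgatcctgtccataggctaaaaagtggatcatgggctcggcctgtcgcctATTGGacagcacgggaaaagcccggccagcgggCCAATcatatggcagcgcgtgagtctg
Mvk: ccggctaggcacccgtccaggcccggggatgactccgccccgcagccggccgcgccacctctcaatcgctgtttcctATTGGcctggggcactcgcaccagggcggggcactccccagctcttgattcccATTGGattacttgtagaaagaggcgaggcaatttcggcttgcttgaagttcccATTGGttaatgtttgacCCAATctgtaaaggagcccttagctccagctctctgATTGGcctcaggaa
Ebp: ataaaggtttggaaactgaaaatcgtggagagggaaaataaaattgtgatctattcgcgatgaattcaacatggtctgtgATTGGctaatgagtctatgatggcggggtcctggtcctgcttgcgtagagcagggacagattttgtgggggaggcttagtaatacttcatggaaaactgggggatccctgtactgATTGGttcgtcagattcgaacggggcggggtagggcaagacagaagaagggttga
Hmgcs1: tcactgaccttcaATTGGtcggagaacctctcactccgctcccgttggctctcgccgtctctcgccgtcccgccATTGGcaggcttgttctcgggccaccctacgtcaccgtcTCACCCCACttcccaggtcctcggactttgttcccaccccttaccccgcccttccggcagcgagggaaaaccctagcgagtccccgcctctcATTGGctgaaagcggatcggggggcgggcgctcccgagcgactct
Acss2: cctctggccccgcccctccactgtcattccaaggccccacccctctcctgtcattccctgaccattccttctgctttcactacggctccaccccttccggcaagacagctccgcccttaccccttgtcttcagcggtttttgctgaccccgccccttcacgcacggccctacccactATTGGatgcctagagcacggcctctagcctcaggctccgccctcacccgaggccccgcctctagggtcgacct

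With Compound E against OP9-DL1, 10 of 17 sterol enzymes rose (58.8%, all genes 25.1%), led by Mvd, Pmvk, Mvk and Ebp. In that arm 1 (Idi1) fell (5.88%, all genes 21.6%). By other probe set rules 8 rose and 2 fell (probe sets averaged) or 7 rose and 3 fell (second brightest). The fatty acid arm split, with Scd1 and Elovl6 higher and Acss2, Acly and Fads2 lower. The 50% of it that passed is near the 46.7% of all genes and so no result about that arm. With arrays centred on their medians that arm read 6 higher and 1 lower. On OP9-DL1 against OP9-GFP, 2 sterol enzymes rose and 4 fell. Their share of 35.3% is near the 32.6% of all genes and so no result about the arm. The largest member difference in that comparison was in Acss2, which was 2.3-fold higher. With Compound E against OP9-GFP, 9 of 17 sterol enzymes (52.9%) and 2 of 10 fatty acid genes (20%) rose and no member fell. Of all genes 12.1% rose and 10.6% fell there.

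Counted over the whole list, 18 of 32 members passed with Compound E against OP9-DL1 (56.2%, 13 higher and 5 lower), where 46.7% of all genes passed, 25.1% higher and 21.6% lower. On OP9-DL1 against OP9-GFP 10 of 32 passed (31.2%, 5 higher and 5 lower), a share near the 32.6% of all genes (15.9% higher, 16.7% lower) and so no result about the list. With Compound E against OP9-GFP 12 of 32 passed (37.5%, all higher), against 22.7% of all genes, 12.1% higher and 10.6% lower. Groups without any overlap were seen in 20 of 32 members with Compound E against OP9-DL1 (62.5%, all genes 52.6%), 14 on OP9-DL1 against OP9-GFP (43.8%, all genes 43.8%) and 15 with Compound E against OP9-GFP (46.9%, all genes 34.8%). Passing means a limma adjusted p under 0.05 over all 18193 genes. The 3 comparisons share arrays, so their values stand side by side and are not independent of each other. After subtracting from each array its own median, every Compound E minus OP9-DL1 log2 difference moved up by 0.13, and the member split became 21 higher and 1 lower in place of 13 and 5: Acaca, Dhcr7, Elovl5, Fads1, Fasn, Insig1, Nsdhl and Srebf2 were added, and the falls of Acly, Idi1, Stard4 and Fads2 were lost. By arm the centred counts were 12 higher and 0 lower sterol genes and 6 higher and 1 lower fatty acid genes. The same centring moved the Compound E minus OP9-GFP differences up by 0.09, with 19 higher and 0 lower in place of 12 and 0: Acaca, Ebp, Elovl5, Fdps, Insig1, Nsdhl and Stard4 were added. Below, a member said not to have passed is without that centring.

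**Figure D1:**
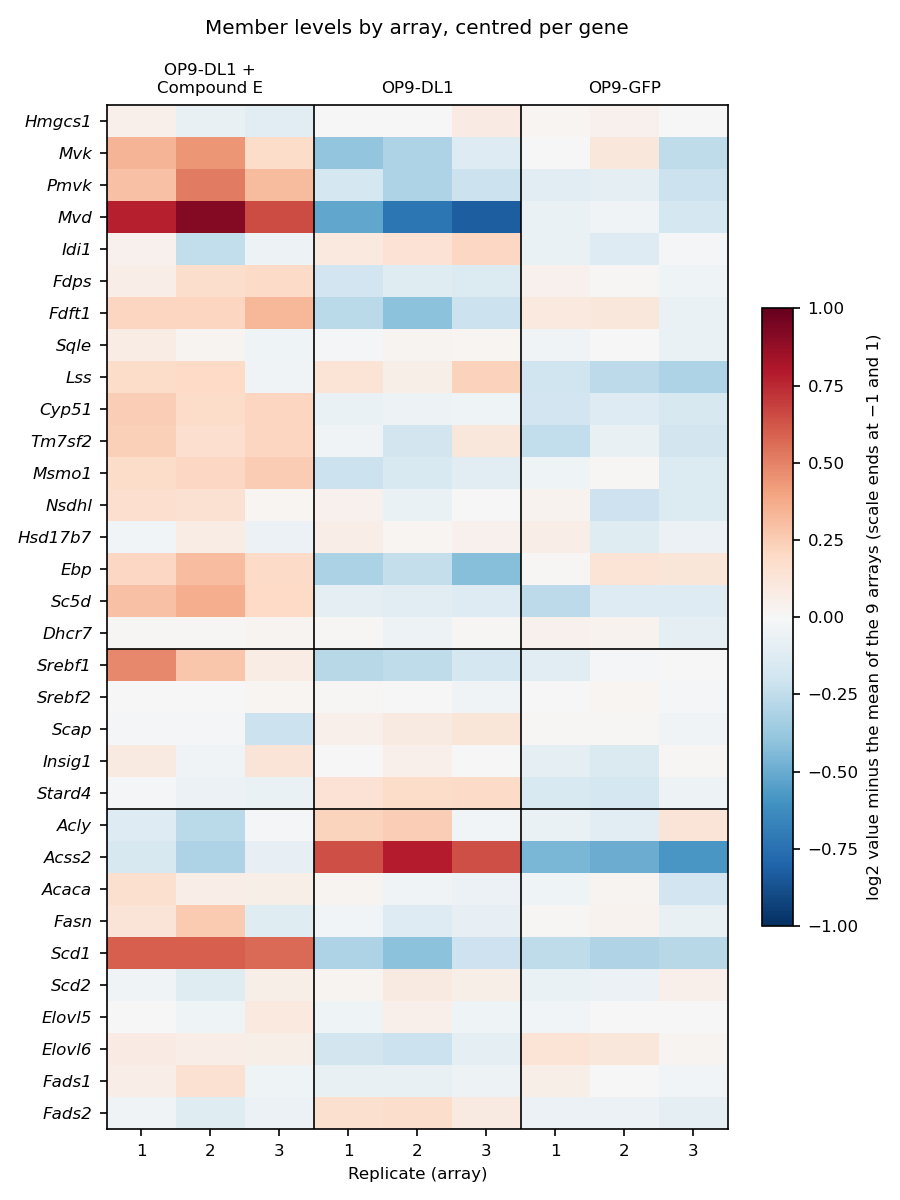
Each row is a measured member and each column an array, grouped as Compound E, OP9-DL1 and OP9-GFP; colour is the log2 value minus that gene's mean over the 9 arrays, and black lines part the sterol arm, the regulators and the fatty acid arm. Mvd, Pmvk and Scd1 stand out as high on the 3 Compound E arrays, and Acss2 as high on the 3 OP9-DL1 arrays.

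The early sterol enzymes make mevalonate and turn it into isoprene units. Mvd, mevalonate diphosphate decarboxylase, which makes isopentenyl diphosphate, read 9.21, 9.36 and 9.08 with Compound E, 7.91, 7.71 and 7.61 on OP9-DL1, and 8.37, 8.40 and 8.26 on OP9-GFP. The 3 groups did not overlap: the Compound E arrays were highest and the OP9-DL1 arrays lowest. Mvd was 2.77-fold higher with Compound E than on OP9-DL1, with a log2 difference of 1.47 (SE 0.09, limma adjusted p = 1e-09) and a 95% interval of 1.28 to 1.67. It was 1.51-fold lower on OP9-DL1 than on OP9-GFP, at -0.60 (SE 0.09, limma adjusted p = 5.91e-05), and 1.83-fold higher with Compound E than on OP9-GFP, at 0.87 (SE 0.09, limma adjusted p = 4.69e-06). A further probe set for Mvd gave 1.48, -0.57 and 0.91 for the same 3 comparisons.

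Pmvk, phosphomevalonate kinase, the enzyme just before Mvd, read 9.54, 9.77 and 9.57 with Compound E, 9.07, 8.94 and 9.03 on OP9-DL1, and 9.14, 9.15 and 9.04 on OP9-GFP. Its Compound E arrays lay above all others, while the OP9-DL1 and OP9-GFP arrays overlapped. The difference was 0.61 (SE 0.07, limma adjusted p = 2.13e-06) with Compound E against OP9-DL1 and 0.52 (SE 0.07, limma adjusted p = 6.7e-05) against OP9-GFP, and -0.09 (interval -0.24 to 0.06) on OP9-DL1 against OP9-GFP, which did not pass. Mvk, mevalonate kinase, read 7.60, 7.70 and 7.44 with Compound E, 6.86, 6.95 and 7.13 on OP9-DL1, and 7.26, 7.37 and 7.01 on OP9-GFP. Again the Compound E arrays were above the rest, and it rose by 0.60 (SE 0.11, limma adjusted p = 0.000386) against OP9-DL1 and 0.37 (SE 0.11, limma adjusted p = 0.0295) against OP9-GFP. The second of these calls was lost without Compound E replicate 1 (adjusted p = 0.0737), Compound E replicate 2 (0.105), OP9-GFP replicate 1 (0.0627) or OP9-GFP replicate 3 (0.139). The OP9-DL1 minus OP9-GFP difference of Mvk was -0.23 (limma adjusted p = 0.15), and it passed, at -0.33, without OP9-GFP replicate 3 (adjusted p = 0.0405).

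Hmgcs1 and Idi1 did not follow these kinases. Hmgcs1, HMG-CoA synthase, whose upstream window holds the sterol regulatory element shown above, read 13.22, 13.10 and 13.06 with Compound E, 13.16, 13.16 and 13.25 on OP9-DL1, and 13.19, 13.21 and 13.16 on OP9-GFP. The groups overlapped, and the differences were -0.07 (interval -0.15 to 0.02) with Compound E against OP9-DL1 and 0.00 (interval -0.08 to 0.09) on OP9-DL1 against OP9-GFP. Neither passed with this probe set, the brightest of 5, but without Compound E replicate 1 the first became -0.11 with an adjusted p of 0.0340. Its 3 other passing probe sets fell by 0.16 to 0.23 with Compound E against OP9-DL1 and rose by 0.15 to 0.27 on OP9-DL1 against OP9-GFP. Idi1, the isomerase that interconverts the isoprene units, read 10.50, 10.21 and 10.40 with Compound E, 10.55, 10.60 and 10.66 on OP9-DL1, and 10.39, 10.33 and 10.44 on OP9-GFP. The OP9-DL1 arrays were above all others: Idi1 fell by 0.23 on the log2 scale with Compound E against OP9-DL1 (SE 0.07, limma adjusted p = 0.00849) and rose by 0.22 (SE 0.07, limma adjusted p = 0.0179) on OP9-DL1 against OP9-GFP. The fall was lost when arrays were centred on their medians (adjusted p = 0.17), and the rise without OP9-DL1 replicate 3 (0.0752), OP9-GFP replicate 1 (0.0522) or OP9-GFP replicate 2 (0.0849).

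Farnesyl diphosphate and squalene come next. Fdps, farnesyl diphosphate synthase, read 10.62, 10.73 and 10.75 with Compound E, 10.37, 10.44 and 10.42 on OP9-DL1, and 10.59, 10.57 and 10.51 on OP9-GFP. It was lowest on OP9-DL1 with no overlap, and rose by 0.29 (SE 0.05, limma adjusted p = 0.000154) with Compound E against OP9-DL1. It fell on OP9-DL1 against OP9-GFP by 0.15 (limma adjusted p = 0.0303), a call lost without OP9-DL1 replicate 1 (0.124), OP9-DL1 replicate 3 (0.0544), OP9-GFP replicate 1 (0.131) or OP9-GFP replicate 2 (0.0939). Compound E against OP9-GFP gave 0.14 (limma adjusted p = 0.0573), which passed without Compound E replicate 1 (0.0273) and with dim genes left out (0.0437). Fdft1, squalene synthase, the first enzyme committed to sterols, read 9.64, 9.64 and 9.76 with Compound E, 9.16, 9.01 and 9.21 on OP9-DL1, and 9.52, 9.54 and 9.36 on OP9-GFP. The OP9-DL1 arrays were again below all others. Fdft1 rose by 0.55 (SE 0.07, limma adjusted p = 5.78e-06) with Compound E against OP9-DL1, and its other probe set gave 0.56. On OP9-DL1 against OP9-GFP it fell by 0.35 (limma adjusted p = 0.000852), but the other probe set gave 0.06 and did not pass, so that fall rests on 1 probe set. Against OP9-GFP the Compound E difference was 0.20 (limma adjusted p = 0.0467). That call was lost without any 1 of the 6 arrays compared or without OP9-DL1 replicate 1, at adjusted p of 0.0563 to 0.187. The other probe set rose by 0.62 in this comparison and passed in a fit of all probe sets.

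Sqle and Lss, which make squalene epoxide and close it to lanosterol, behaved unlike each other. Sqle, squalene epoxidase, read 9.09, 9.05 and 8.97 with Compound E, 9.01, 9.04 and 9.04 on OP9-DL1, and 8.98, 9.02 and 8.95 on OP9-GFP. Its groups overlapped in every comparison, with a difference of 0.01 (interval -0.12 to 0.13) with Compound E against OP9-DL1 and 0.04 (interval -0.09 to 0.17) on OP9-DL1 against OP9-GFP. Lss, lanosterol synthase, read 7.97, 7.99 and 7.76 with Compound E, 7.93, 7.85 and 8.02 on OP9-DL1, and 7.60, 7.54 and 7.48 on OP9-GFP. It was higher in both groups with Delta-like 1 feeders than on OP9-GFP, by 0.37 (SE 0.09, limma adjusted p = 0.00603) with Compound E and 0.40 (SE 0.09, limma adjusted p = 0.00198) without. Compound E against OP9-DL1 gave -0.03 (interval -0.21 to 0.16), which did not pass.

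The later enzymes trim lanosterol to cholesterol. Ebp, the sterol isomerase also known as emopamil-binding protein, read 10.42, 10.52 and 10.41 with Compound E, 9.89, 9.97 and 9.79 on OP9-DL1, and 10.22, 10.35 and 10.33 on OP9-GFP. The OP9-DL1 arrays lay below all others, with 0.56 (SE 0.06, limma adjusted p = 7.49e-07) for Compound E against OP9-DL1 and -0.42 (SE 0.06, limma adjusted p = 3.29e-05) for OP9-DL1 against OP9-GFP. Compound E against OP9-GFP gave 0.15 (limma adjusted p = 0.0909) and did not pass. Sc5d, a sterol desaturase, read 8.96, 9.03 and 8.86 with Compound E, 8.56, 8.55 and 8.54 on OP9-DL1, and 8.41, 8.54 and 8.54 on OP9-GFP. It rose by 0.40 (SE 0.07, limma adjusted p = 0.000169) with Compound E against OP9-DL1 and by 0.45 (SE 0.07, limma adjusted p = 0.000189) against OP9-GFP, while another probe set gave 0.30 and 0.37, neither past the threshold. Msmo1, a methylsterol oxidase, read 9.997, 10.02 and 10.07 with Compound E, 9.59, 9.66 and 9.71 on OP9-DL1, and 9.77, 9.82 and 9.68 on OP9-GFP. Here too the Compound E arrays were above the rest, by 0.37 (SE 0.06, limma adjusted p = 4.31e-05) against OP9-DL1, but a second probe set gave 0.03, which did not pass.

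Cyp51, the demethylase that acts on lanosterol, read 10.98, 10.92 and 10.95 with Compound E, 10.66, 10.68 and 10.69 on OP9-DL1, and 10.54, 10.60 and 10.57 on OP9-GFP. The probe set used put the Compound E arrays highest, by 0.27 (SE 0.04, limma adjusted p = 0.000103) against OP9-DL1. A dimmer probe set of Cyp51 gave the opposite sign, -0.40 (limma adjusted p = 0.00527), and also 0.72 on OP9-DL1 against OP9-GFP, where the one used gave 0.11 and did not pass, so the direction of Cyp51 between Compound E and OP9-DL1 is not settled by this array. Against OP9-GFP both these probe sets rose with Compound E, by 0.38 and 0.32. Tm7sf2, a sterol reductase, read 8.67, 8.59 and 8.64 with Compound E, 8.39, 8.24 and 8.54 on OP9-DL1, and 8.18, 8.35 and 8.24 on OP9-GFP. It rose by 0.24 (SE 0.08, limma adjusted p = 0.0241) with Compound E against OP9-DL1, a call lost without OP9-DL1 replicate 1 (0.0617), OP9-DL1 replicate 2 (0.129) or Compound E replicate 1 (0.0689), and by 0.38 (SE 0.08, limma adjusted p = 0.00354) against OP9-GFP.

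Nsdhl, Hsd17b7 and Dhcr7, dehydrogenase and reductase steps of the same stretch, passed in no comparison. Dhcr7, which makes cholesterol in the last step of one branch, read 10.55, 10.55 and 10.57 with Compound E, 10.55, 10.49 and 10.55 on OP9-DL1, and 10.59, 10.57 and 10.44 on OP9-GFP. No array stood apart, and the Compound E minus OP9-DL1 difference was 0.03 (interval -0.08 to 0.13). Nsdhl read 8.68, 8.67 and 8.53 with Compound E, 8.56, 8.44 and 8.52 on OP9-DL1, and 8.54, 8.30 and 8.37 on OP9-GFP. Its difference of 0.22 with Compound E against OP9-GFP (limma adjusted p = 0.0568) passed without Compound E replicate 3 (0.0307) or OP9-GFP replicate 1 (0.0305), and with dim genes left out (0.0466). Hsd17b7 read 9.11, 9.21 and 9.08 with Compound E, 9.20, 9.15 and 9.18 on OP9-DL1, and 9.20, 9.01 and 9.08 on OP9-GFP, with overlapping groups throughout.

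**Figure D2:**
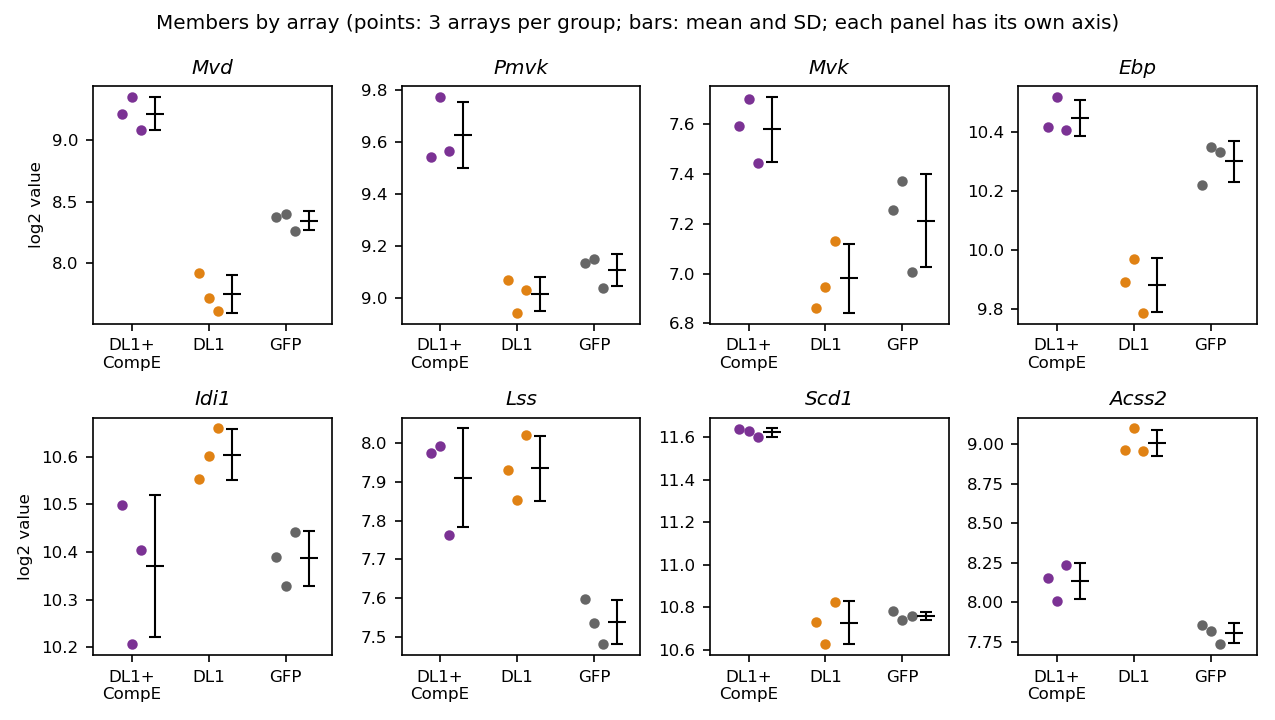
Each panel is a member and each point an array (log2 value, own axis per panel), with Compound E, OP9-DL1 and OP9-GFP from left to right and bars for the mean and SD of 3 arrays. Mvd, Pmvk, Mvk and Scd1 are highest with Compound E, Ebp is lowest on OP9-DL1, Idi1 and Acss2 are highest on OP9-DL1, and Lss is lowest on OP9-GFP.

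Among the regulators, Srebf1 differed between groups and Srebf2 did not pass in any comparison. Srebf1, which encodes the SREBP-1 proteins, read 9.47, 9.26 and 9.06 with Compound E, 8.71, 8.73 and 8.81 on OP9-DL1, and 8.88, 8.97 and 8.99 on OP9-GFP. The Compound E arrays lay above all others and spread the most. Srebf1 rose by 0.52 (SE 0.09, limma adjusted p = 0.000106) with Compound E against OP9-DL1, 1.43-fold, and by 0.32 (SE 0.09, limma adjusted p = 0.0136) against OP9-GFP, a call lost without Compound E replicate 1 (0.0707) or OP9-GFP replicate 1 (0.0663). Srebf1 on OP9-DL1 against OP9-GFP gave -0.20 (limma adjusted p = 0.0982) with no overlap. That difference passed without Compound E replicate 1 (0.0474) or replicate 3 (0.0371), and in a fit of the 6 arrays compared (0.0217).

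Srebf2, which encodes SREBP-2, read 10.83, 10.82 and 10.85 with Compound E, 10.84, 10.82 and 10.79 on OP9-DL1, and 10.82, 10.85 and 10.81 on OP9-GFP. All 9 arrays lay within a narrow band, and the Compound E minus OP9-DL1 difference of 0.01 had an interval of -0.08 to 0.11. The probe sets measure the transcript, not the cut protein that acts in the nucleus. Insig1, which holds the SREBP complex back, read 11.96, 11.83 and 11.998 with Compound E, 11.86, 11.92 and 11.86 on OP9-DL1, and 11.77, 11.72 and 11.88 on OP9-GFP. It passed in no comparison. Its 0.14 with Compound E against OP9-GFP (limma adjusted p = 0.0693) passed without Compound E replicate 2 (0.0148) or OP9-GFP replicate 3 (0.026).

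Scap, which escorts SREBP to the Golgi, read 8.92, 8.92 and 8.72 with Compound E, 8.99, 9.02 and 9.05 on OP9-DL1, and 8.95, 8.95 and 8.90 on OP9-GFP. Its Compound E arrays were below the OP9-DL1 arrays by 0.17 (limma adjusted p = 0.0531), which did not pass. The difference did pass without Compound E replicate 1 (0.0406) or replicate 2 (0.0357) and with dim genes left out (0.0447). Compound E against OP9-GFP gave -0.08, which did not pass. A second, dimmer probe set of Scap fell further with Compound E. It gave -0.72 against OP9-DL1 (limma adjusted p = 0.0286) and -0.78 against OP9-GFP (limma adjusted p = 0.0376). Stard4, a cytosolic carrier of cholesterol and a known SREBP-2 target, read 10.36, 10.32 and 10.31 with Compound E, 10.52, 10.56 and 10.57 on OP9-DL1, and 10.23, 10.20 and 10.33 on OP9-GFP. The OP9-DL1 arrays were above all others. Stard4 fell by 0.22 with Compound E against OP9-DL1 (limma adjusted p = 0.0017), lost when arrays were centred on their medians (0.149), and rose by 0.30 (SE 0.05, limma adjusted p = 0.000157) on OP9-DL1 against OP9-GFP.

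In the fatty acid arm the largest differences were in Acss2 and Scd1. With Compound E against OP9-DL1 they ran in opposite directions, and against OP9-GFP both were higher. Acss2, the cytosolic enzyme that turns acetate into acetyl-CoA, read 8.15, 8.01 and 8.23 with Compound E, 8.96, 9.10 and 8.96 on OP9-DL1, and 7.86, 7.82 and 7.73 on OP9-GFP. No array overlapped between the groups, with OP9-DL1 far above the others. Acss2 was 2.3-fold higher on OP9-DL1 than on OP9-GFP, at 1.20 (SE 0.08, limma adjusted p = 3.75e-09). It was 1.83-fold lower with Compound E than on OP9-DL1, at -0.87 (SE 0.08, limma adjusted p = 1.28e-07), and still 0.33 above OP9-GFP (limma adjusted p = 0.00707). Another of its probe sets gave 1.01, -0.54 and 0.47 for these 3 comparisons, and a dim one gave 0.17, -0.08 and 0.09, none past the threshold. The summed megakaryocyte, feeder stroma and adipocyte signals were highest on OP9-DL1 as well, and their part in this result was not tested. Not every gene of these lists had its highest mean there: Cebpa, Retn, Plin4 and Cidec of the adipocyte list and Col1a2 of the feeder list did not. Cidec was at background in every group.

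Acly, which makes acetyl-CoA from citrate, read 11.99, 11.85 and 12.11 with Compound E, 12.34, 12.37 and 12.09 on OP9-DL1, and 12.05, 12.01 and 12.25 on OP9-GFP. OP9-DL1 replicate 3 lay among the Compound E arrays, so these groups overlapped. It fell by 0.28 with Compound E against OP9-DL1 (limma adjusted p = 0.00627), which was lost when arrays were centred on their medians (0.103). A dimmer probe set rose by 0.29 (limma adjusted p = 0.0315). Acly on OP9-DL1 against OP9-GFP gave 0.16, which passed without OP9-DL1 replicate 3 (0.0172) or OP9-GFP replicate 3 (0.0317).

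The enzymes that make palmitate showed no difference past the threshold. Acaca, acetyl-CoA carboxylase, which makes malonyl-CoA, read 8.99, 8.90 and 8.89 with Compound E, 8.87, 8.80 and 8.77 on OP9-DL1, and 8.79, 8.86 and 8.64 on OP9-GFP. Fasn, fatty acid synthase, read 9.44, 9.56 and 9.19 with Compound E, 9.28, 9.17 and 9.22 on OP9-DL1, and 9.31, 9.34 and 9.23 on OP9-GFP. Their Compound E minus OP9-DL1 differences were 0.12 (interval -0.03 to 0.27) and 0.17 (interval 0.00 to 0.34). Acaca with Compound E against OP9-GFP gave 0.16 (limma adjusted p = 0.11) with no overlap. Its sign depended on the setting. Over the other settings it ran from -0.17 to 0.25 against OP9-DL1 and from -0.25 to 0.26 against OP9-GFP. Fasn passed without Compound E replicate 3, the lowest of that group, at 0.28 against OP9-DL1 (adjusted p = 0.00374) and 0.21 against OP9-GFP (0.039).

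Scd1, the stearoyl-CoA desaturase that makes monounsaturated fatty acids, read 11.64, 11.63 and 11.60 with Compound E, 10.73, 10.63 and 10.83 on OP9-DL1, and 10.78, 10.74 and 10.76 on OP9-GFP. The Compound E arrays were above all others, and the OP9-DL1 arrays overlapped those of OP9-GFP. Scd1 was 1.86-fold higher with Compound E than on OP9-DL1, at 0.90 (SE 0.05, limma adjusted p = 3.25e-10), and 1.82-fold higher than on OP9-GFP, at 0.86 (SE 0.05, limma adjusted p = 1.15e-08). Scd1 on OP9-DL1 against OP9-GFP gave -0.03 (interval -0.14 to 0.08). A further probe set gave 0.71, 0.76 and 0.04. The summed macrophage markers were also highest with Compound E, although Mrc1, C1qb and C1qc were lower there than on OP9-GFP, and their part was not tested.

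Scd2, a second desaturase of the same family, read 12.20, 12.12 and 12.29 with Compound E, 12.26, 12.33 and 12.29 on OP9-DL1, and 12.17, 12.18 and 12.29 on OP9-GFP. Its Compound E minus OP9-DL1 difference of -0.09 (interval -0.19 to 0.01) passed without Compound E replicate 3, at -0.14 (adjusted p = 0.0274), and another probe set rose by 0.39. Scd1 and Scd2 are close relatives, so probes of either may read some of the other. Fads2, which desaturates polyunsaturated fatty acids, read 10.72, 10.63 and 10.69 with Compound E, 10.91, 10.93 and 10.84 on OP9-DL1, and 10.70, 10.69 and 10.66 on OP9-GFP. It was highest on OP9-DL1 with no overlap, rose by 0.21 (SE 0.05, limma adjusted p = 0.00169) against OP9-GFP and fell by 0.22 with Compound E (limma adjusted p = 0.00107). The fall was lost when arrays were centred (0.126). Fads1, which acts later on the same chains, read 9.56, 9.64 and 9.45 with Compound E, 9.42, 9.42 and 9.44 on OP9-DL1, and 9.55, 9.49 and 9.46 on OP9-GFP. Fads1 passed in no comparison, but did without Compound E replicate 3, at 0.18 against OP9-DL1 (adjusted p = 0.0263). Its second brightest probe set went the other way with Compound E against OP9-GFP, at -0.39 (limma adjusted p = 0.033). Against OP9-DL1 its lowest difference over the settings was -0.25, which did not pass.

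Elovl6, which lengthens palmitate to stearate, read 9.75, 9.73 and 9.73 with Compound E, 9.48, 9.45 and 9.57 on OP9-DL1, and 9.80, 9.78 and 9.69 on OP9-GFP. The OP9-DL1 arrays were below the rest: Elovl6 fell by 0.26 on OP9-DL1 against OP9-GFP (SE 0.06, limma adjusted p = 0.00177) and rose by 0.23 (SE 0.06, limma adjusted p = 0.00279) with Compound E against OP9-DL1. A dimmer probe set went the other way in the second comparison, at -1.02 (limma adjusted p = 1e-04), so this rise rests on the probe set used. Elovl5, which lengthens polyunsaturated chains, read 12.65, 12.60 and 12.74 with Compound E, 12.61, 12.70 and 12.61 on OP9-DL1, and 12.62, 12.65 and 12.64 on OP9-GFP. It overlapped in every comparison, with 0.03 (interval -0.06 to 0.12) for Compound E against OP9-DL1.

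**Figure D3:**
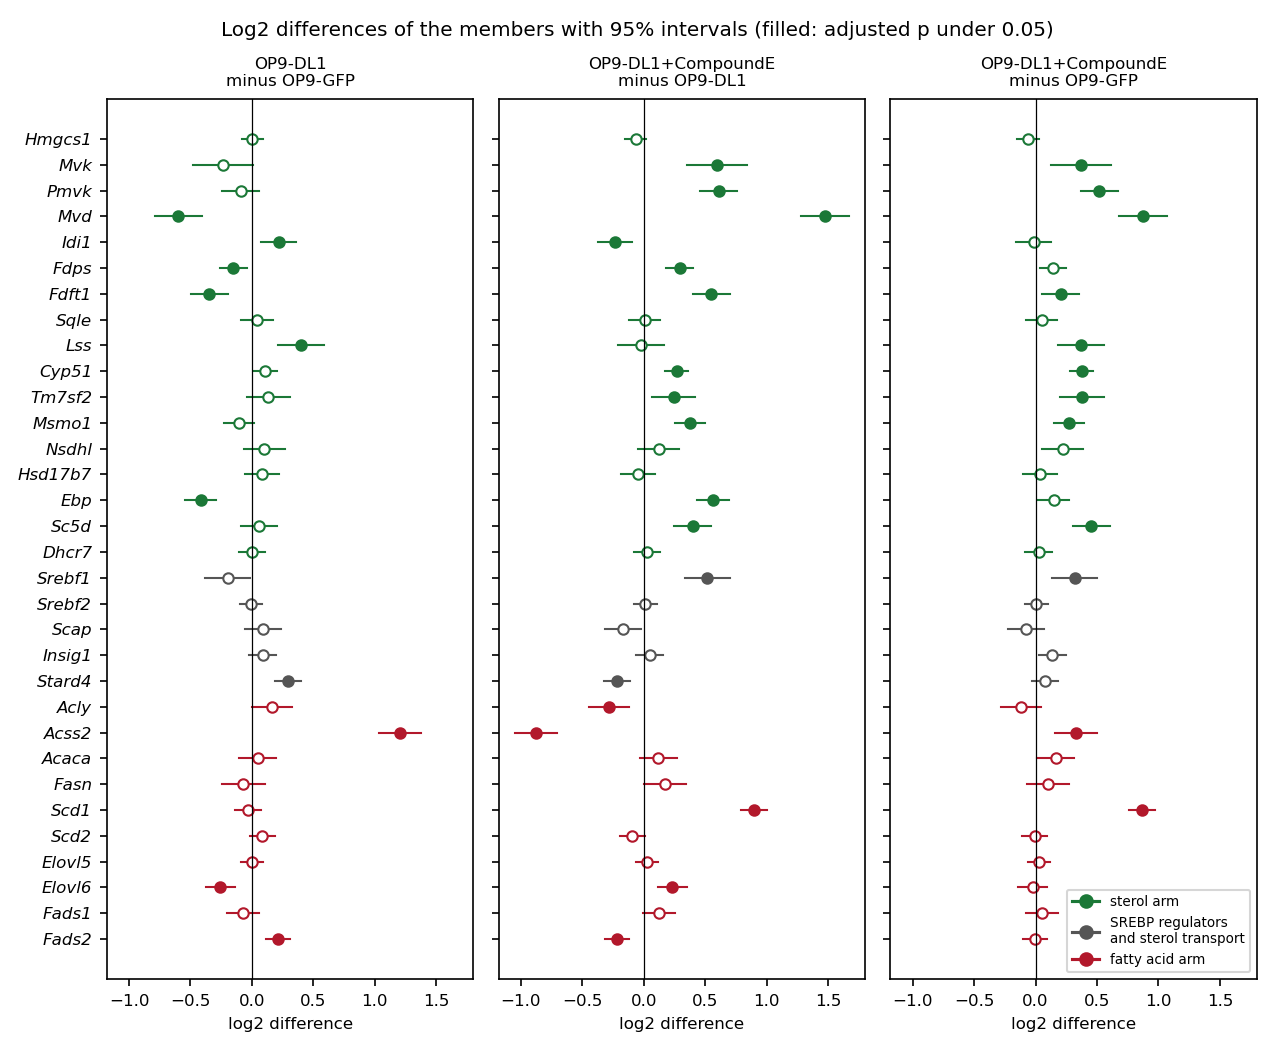
Points are log2 differences of each measured member in the 3 comparisons with 95% intervals, and filled points passed the threshold; green marks the sterol arm, grey the regulators and red the fatty acid arm. In the Compound E minus OP9-DL1 panel 10 sterol genes lie to the right of 0 as filled points, while the fatty acid arm has 2 to the right and 3 to the left.

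The sterol and fatty acid arms were then set side by side. With Compound E against OP9-DL1 the median log2 difference was 0.27 over the 17 sterol genes, with a range of -0.23 to 1.47, and 0.07 over the 10 fatty acid genes, with a range of -0.87 to 0.90. The median of all genes tested was 0.08. The arms differed by 0.19, a value that centring the arrays cannot alter. The size of the sterol median depended on the probe set rule. With a gene's probe sets averaged the sterol and fatty acid medians were 0.18 and -0.02. On the second brightest probe set they were 0.12 and -0.08. The arms differed by 0.20 under either rule. With Compound E against OP9-GFP the medians were 0.22 and 0.04, against 0.05 for all genes, a difference of 0.18 that was 0.23 without OP9-GFP replicate 1. On OP9-DL1 against OP9-GFP both arms were near 0, at 0.00 and 0.02, with -0.02 for all genes. In size regardless of sign, the Compound E minus OP9-DL1 medians were 0.27 for the sterol arm, 0.19 for the fatty acid arm and 0.23 for all genes.

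On single arrays, each gene was set to its own mean of 9 arrays and the median of an arm was taken. The sterol arm stood at 0.184, 0.182 and 0.193 with Compound E, at -0.0691, -0.114 and -0.0403 on OP9-DL1, and at -0.0332, -0.0343 and -0.126 on OP9-GFP. All 3 Compound E arrays were above the other 6, and the OP9-DL1 and OP9-GFP arrays overlapped. The fatty acid arm stood at 0.0361, 0.0102 and 0.0229 with Compound E, 0.00109, 0.00828 and -0.0458 on OP9-DL1, and -0.0502, -0.0322 and -0.0514 on OP9-GFP. By the median its Compound E arrays were again highest, by far smaller steps, while by the mean of the arm they overlapped the OP9-DL1 arrays. Members of an arm are not replicates, so no test was made over them.

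**Figure D4:**
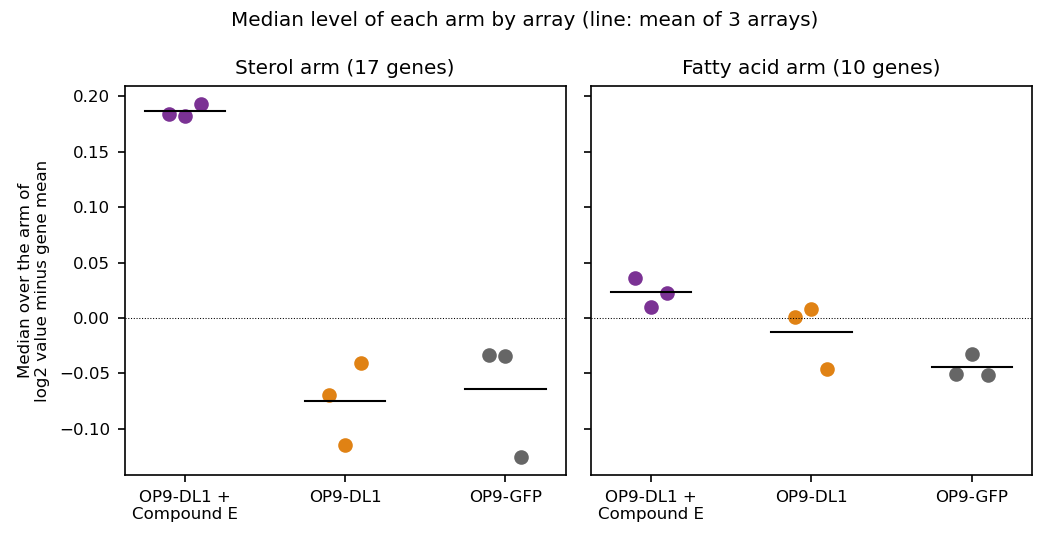
Each point is an array: the median over an arm of the log2 value minus the gene's mean, with Compound E, OP9-DL1 and OP9-GFP from left to right and a line at the mean of 3 arrays. The sterol arm is at 0.182 to 0.193 on the Compound E arrays and below 0 on the other 6, while the fatty acid arm stays between -0.0514 and 0.0361.

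Of the 32 members, 23 have several probe sets, and 22 have at least 1 other above the bacterial controls, 35 such probe sets in all. In a fit of all probe sets, 13 members called with Compound E against OP9-DL1 had others to compare. In 8 of them another probe set passed the same way, and in 3, Cyp51, Acly and Elovl6, another passed the opposite way. Hmgcs1, Scap and Scd2 did not pass with the probe set used while another did. On OP9-DL1 against OP9-GFP, 8 called members had others, 5 with another passing the same way and 0 with an opposite one, and Hmgcs1 and Cyp51 passed on another probe set only. In the third comparison, Compound E against OP9-GFP, 8 called members had others, 5 with another passing the same way and 0 with an opposite one, and Fdft1, Scap, Acly, Elovl6 and Fads1 passed in that fit on another probe set only.

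**Figure D5:**
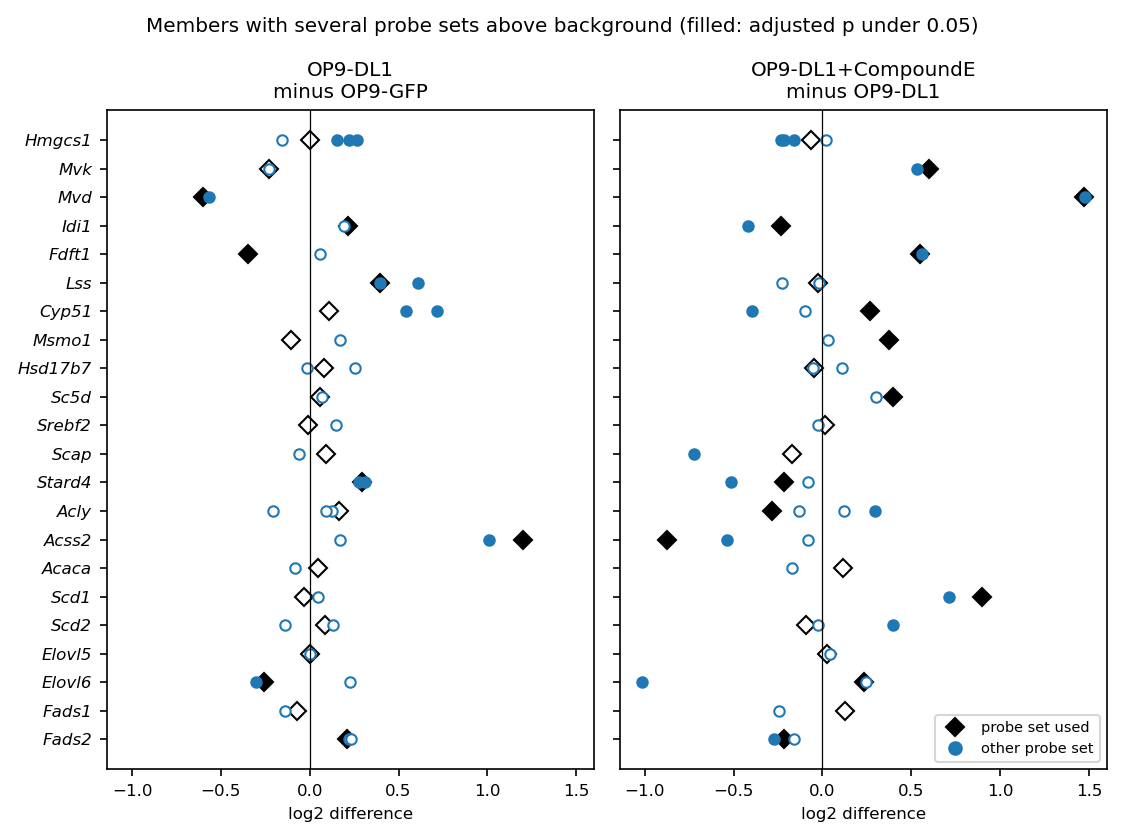
Each mark is a probe set above background of a member that has several, placed at its log2 difference on OP9-DL1 against OP9-GFP (left) and with Compound E against OP9-DL1 (right); diamonds are the probe sets used, circles the others, and filled marks passed the threshold in a fit of all probe sets. Mvd and Scd1 marks lie close together in both panels, while Cyp51 and Elovl6 have marks on opposite sides of 0 on the right.

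Other genes of the same biology were read from a separate list. There were 20 measured genes for other steps of isoprenoid and sterol synthesis and for sterol sensing, storage and export. Of these, 11 rose and 1 fell with Compound E against OP9-DL1 (median 0.39), 60% against 46.7% of all genes. On OP9-DL1 against OP9-GFP 1 rose and 12 fell (median -0.31), 65% against 32.6% of all genes. With Compound E against OP9-GFP 2 rose and 2 fell (median 0.03). That share of 20% is near the 22.7% of all genes and so no result about these genes. Npc1, which moves cholesterol out of lysosomes, read 9.47, 9.50 and 9.46 with Compound E, 7.64, 7.57 and 7.59 on OP9-DL1, and 9.17, 9.14 and 8.97 on OP9-GFP. Its OP9-DL1 arrays were far below the rest, with 1.87 (SE 0.07, limma adjusted p = 1.77e-12) and -1.49 (SE 0.07, limma adjusted p = 5.02e-11) in the first 2 of these comparisons. Cyp27a1, which makes an oxysterol used at the start of the alternative bile acid route, differed by 2.89 and -2.58, and Abca1, the cholesterol exporter, by 1.02 and -1.31. Pgrmc1, a haem protein that binds Cyp51 and other P450 enzymes, ran the other way, at -0.83 and 0.54, all past the threshold. Npc1, Cyp27a1 and Abca1 are also known in macrophages, whose markers moved in the same directions, and that part was not tested.

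There were 29 measured genes for other steps of fatty acid and glycerolipid synthesis. Of these, 7 rose and 9 fell with Compound E against OP9-DL1 (median -0.01), 55.2% against 46.7% of all genes. On OP9-DL1 against OP9-GFP 4 rose and 5 fell (median 0.03), 31% against 32.6% of all genes. With Compound E against OP9-GFP 3 rose and 3 fell (median -0.01), 20.7% against 22.7% of all genes. The shares in the last 2 comparisons are near those of all genes and so no result about these genes. Gpam, which starts triglyceride synthesis on mitochondria, read 8.06, 8.15 and 8.26 with Compound E, 9.001, 9.08 and 9.04 on OP9-DL1, and 8.47, 8.54 and 8.34 on OP9-GFP. Like Acss2 it was highest on OP9-DL1, at -0.88 (SE 0.08, limma adjusted p = 5.85e-08) for Compound E against OP9-DL1. Hacd4, of the dehydratase family that acts in fatty acid elongation, read 10.16, 10.16 and 10.29 with Compound E, 8.73, 8.60 and 8.63 on OP9-DL1, and 9.82, 9.82 and 9.69 on OP9-GFP. It was lowest on OP9-DL1, at 1.55 (SE 0.06, limma adjusted p = 6.75e-12) for Compound E against OP9-DL1. Mlx, the partner of carbohydrate-response factors, gave 0.76 in that comparison and -0.57 on OP9-DL1 against OP9-GFP, both past the threshold.

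The marker lists moved with the members in different ways. Fabp4, a fatty acid carrier of adipocytes and macrophages, read 9.33, 9.23 and 9.13 with Compound E, 10.96, 10.91 and 10.92 on OP9-DL1, and 9.46, 9.36 and 9.55 on OP9-GFP, so like Acss2, Stard4 and Fads2 it was highest on OP9-DL1. Adipoq, made by adipocytes, read 5.41, 4.82 and 5.41 with Compound E, 6.78, 7.20 and 6.90 on OP9-DL1, and 5.17, 4.44 and 4.71 on OP9-GFP. The summed macrophage signal was lowest on OP9-DL1, as were Mvd, Ebp, Fdft1, Fdps and Elovl6 by the probe sets used. For Fdft1 and Elovl6 another probe set did not have OP9-DL1 lowest. With Compound E against OP9-GFP, macrophage sums were 36360 to 37407 and 32416 to 33361, with 9 of the 15 genes higher and 3 lower (80%, all genes 22.7%). In that comparison Mvd, Pmvk, Scd1, Sc5d and Cyp51 were higher, by 0.87, 0.52, 0.86, 0.45 and 0.38 on the log2 scale. The part of cell makeup in these values was not tested.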

How the data were processed

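RNA was amplified before labelling, per the labels' protocols, and hybridised to 9 single-colour arrays. Groups and replicate numbers are those of the titles. What the authors deposited is a log2 signal for each of 45101 probe sets on every array; MAS5 and GCRMA 2.4.1 are named in the submitters' processing notes, with no word on which made the signals. Medians of the arrays were 4.78 to 4.94. With 3 arrays a group, the median SE of a difference was 0.10, and no depth applies.

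From the supplied annotation 34945 probe sets had 1 symbol, 932 several, 9160 none, and 64 were controls. A gene took its probe set of highest mean over the 9 arrays, which gave 18193 genes. Differences came from limma 3.58.1 in R 4.3.3 (lmFit, then eBayes with trend), fitted to all arrays without covariate or filter, with Benjamini-Hochberg adjustment across the genes of a comparison and a threshold of 0.05. The code was tested on simulated data. Upstream windows are RefSeq's for GRCm38.p6. The alternatives were an offset, other normalizations, filters on dim or equal values, other probe set rules, a replicate block and leaving out each array; the second brightest probe set was added after seeing the data. All measured members are named, and from the other lists only genes among the 3 smallest p of the first 2 comparisons, with Ptprc as a check of the cell type, and single genes of the marker lists that run against their list, added after their values were seen. Members and lists were chosen with earlier results of these data known.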

Additional observations from a re-analysis of the deposited data

How the results depend on the processing

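Results were recomputed under 20 other settings, or 19 for Dhcr7 and Scap, which the filter on equal values drops. Of 96 member differences, 50 kept their side of the threshold in all settings run; among those that did not pass, the sign of small differences was not counted and did change in places, as with Hmgcs1, Lss, Hsd17b7 and Scd2 between Compound E and OP9-DL1 when arrays were centred. Of the 40 that passed, 17 lost the call in at least 1 setting while keeping their sign, and 3 turned round in sign. Of these 3, Fdft1 on OP9-DL1 against OP9-GFP is also among the 17. Cyp51 and Elovl6 with Compound E against OP9-DL1 are not. With probe sets averaged they too lost the call (limma adjusted p = 0.377 and 0.0624). Among those that did not pass, 27 did so in at least 1 setting. Counts of members that passed stayed within 1.5 times the value given, with these exceptions. Averaging a gene's probe sets left 2 members lower on OP9-DL1 against OP9-GFP in place of 5, and made 2 lower with Compound E against OP9-GFP in place of 0, as did the second brightest probe set (2). Centring arrays gave 21 higher and 1 lower with Compound E against OP9-DL1 in place of 13 and 5, and 19 higher against OP9-GFP in place of 12; its construction adds 0.13 and 0.09 to these differences.

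Leaving out each array in turn gave 4 to 6 higher and 4 to 6 lower on OP9-DL1 against OP9-GFP, 12 to 15 higher and 5 to 7 lower with Compound E against OP9-DL1, and 10 to 13 higher and 0 lower with Compound E against OP9-GFP. The sterol minus fatty acid median then ran from -0.0524 to -0.00117, 0.184 to 0.242 and 0.169 to 0.23 in these comparisons, the last being 0.23 without OP9-GFP replicate 1.

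Among differences past the threshold in either setting, the direction turned with the probe set rule. Cyp51 with Compound E against OP9-DL1 was -0.0772 as a mean of probe sets and -0.40 on the second brightest, and Elovl6 was -0.18 as a mean. Fdft1 on OP9-DL1 against OP9-GFP was 0.0602 on the second brightest, and Fads1 with Compound E against OP9-GFP was -0.39. The cause was not tested.

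Deviations of same-numbered arrays from their group means correlated at -0.115 to 0.119, and those of different numbers at -0.144 to 0.0947. Between OP9-GFP and Compound E, numbers 2 and 3 gave 0.104 and 0.119, while every same-numbered pair with OP9-DL1 was negative. Deviations within a group of 3 arrays are tied to each other, so these values cannot tell whether the numbers pair the samples. A fit with the replicate number as a block called 5 higher and 5 lower, 13 and 5, and 11 and 0 members in the 3 comparisons; the call it ended was Fdft1 with Compound E against OP9-GFP (adjusted p = 0.0676). Differences of dim probe sets are limited by the background, but no member used was near it.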
